A study of Mus musculus with 7 samples.

Results

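Ror1, the gene of a receptor tyrosine kinase-like Wnt receptor, was described in single nuclei of mouse small cell lung cancer together with 9 further genes of noncanonical Wnt signaling. These 10 genes, of 56941 named in the gene tables, were found by symbol in the count matrices of all 4 animals. Ror1 was chosen by its lower level in RPC than in RP tumors in earlier results of these data, so its genotype difference is given as a description without a test. The other genes were listed for their place in the pathway: the receptors Ror2 and Ryk, the ligand Wnt5a, the Frizzled receptors Fzd2, Fzd3 and Fzd7, and the planar cell polarity genes Vangl2, Prickle1 and Prickle2.

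Nuclei came from fresh-frozen lung tumors of 4 male mice at endpoint, 2 per genotype. All mice carried Rb1 fl/fl and Trp53 fl/fl alleles, deleted by an inhaled adenovirus that expresses Cre from the CMV promoter, which is not restricted to one lung cell type. RP1 and RP2 carried no further allele, whereas RPC1 and RPC2 also lost Casp8, written Casp8-/- in the labels and described as a conditional allele in the methods of the study. The labels give no age. Each of the 7 libraries pooled nuclei of all animals, so the animal was the replicate, and no nucleus barcode was shared between animals. Filtering left 8363, 8874, 10853 and 10164 nuclei. Wherever 4 values follow each other without names, they stand for RP1, RP2, RPC1 and RPC2 in this order.

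Wnt ligands act through a beta-catenin branch, which controls transcription, and through noncanonical branches, which act on the cytoskeleton and on calcium. Wnt5a is the best known noncanonical ligand. It binds Ror1, Ror2, Ryk and several Frizzled receptors, and Vangl and Prickle proteins carry the planar cell polarity branch, which orients cells within a tissue. Ror1 is mainly an embryonic receptor that is retained in mesenchymal cells and is found on several cancers, and Wnt5a of the lung mesenchyme is known from lung development.

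Nuclei were clustered without these genes and without 102 other Wnt pathway genes, and clusters were named from marker lists. Tumor-like nuclei numbered 7129, 7282, 9132 and 8704 and held 27924287, 27650178, 52657407 and 45969522 transcripts in the same order. Neuroendocrine tumor markers were all detected in them, but 5 of the 14 were higher there than in each tested class in all 4 animals. The other nuclei fell into 11 named classes, and their own markers were higher than in tumor-like nuclei in all animals for 9 of 9 alveolar type 2, 9 of 9 alveolar type 1, 8 of 8 club, 8 of 9 B cell, 8 of 9 ciliated, 10 of 11 endothelial, 10 of 12 fibroblast, 9 of 11 smooth muscle or pericyte, 10 of 13 macrophage or monocyte, 9 of 13 T or NK cell and 6 of 8 mesothelial markers. Rn18s-rs5, a ribosomal RNA, took 9.38%, 7.83%, 2.79% and 5.09% of tumor-like transcripts, so the depth and the ribosomal share moved with the genotype. Levels are in CPM, the count of a gene in a class of an animal after scaling every such sum to the same total of transcripts. Counts are comparable between classes and animals for 1 gene, not between genes, since they are not divided by length.

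In tumor-like nuclei, Ror1 stood at 134 and 141 CPM in the RP animals and at 40.9 and 40.8 CPM in the RPC animals. Both RP animals were therefore far above both RPC animals, with means of 138 ± 5.21 (SD, n = 2) and 40.8 ± 0.072 (SD, n = 2). The fitted log2 fold change (RPC over RP) came to -1.81 (SE 0.13), and it stayed between -1.83 and -1.78 when any single animal was left out. A log2 fold change at least this low was found in 1.07% of the 20133 genes tested, and one of -1 or lower in 5.54%. Ror1 lies on chromosome 4 (GRCm39, 4:99952988-100301990, plus strand) and spans 349 kb, the non-coding gene Gm12701 and the pseudogene Gm12706 are annotated within it, and the non-coding gene Gm35701 overlaps its start.

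The receptor genes Ror2 and Ryk were not called between the genotypes. Ror2 (13:53263348-53440247, minus strand), the close relative of Ror1, had levels of 304, 402, 321 and 306 CPM. The animals overlapped, with RP2 highest, and the log2 fold change was -0.23 (SE 0.18, edgeR adjusted p = 0.55). Ryk (9:102712002-102785504, plus strand), an atypical receptor that binds Wnt5a, had levels of 74.8, 73.8, 69.9 and 65.5 CPM. Both RP animals lay above both RPC animals, but the difference was small (log2 fold change -0.19, SE 0.13, edgeR adjusted p = 0.51).

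Wnt5a transcripts were rare in tumor-like nuclei. Wnt5a (14:28226495-28249405, plus strand) was counted 12, 26, 26 and 139 times, which are 0.43, 0.94, 0.494 and 3.02 CPM. RPC2 alone was high, whereas RPC1 lay between the RP animals. The log2 fold change of 1.31 (SE 0.94, edgeR adjusted p = 0.523) became -0.52 without RPC2, 1.96 without RP2 and 2.10 without RPC1. Within RPC2, 61 and 67 of the transcripts came from 2 of its large tumor clusters, with 3363 and 2574 nuclei. These counts are 5.04 and 2.42 CPM. Over the 6 clusters of RPC2 the level ranged from 0 to 7.03 CPM with a median of 2.39.

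Among the listed Frizzled receptors Fzd2, Fzd3 and Fzd7, Fzd3 was the only one with a level of at least 1 CPM in tumor-like nuclei. Fzd3 (14:65429573-65499933, minus strand), which is known from axon guidance, had levels of 64.9, 54.9, 65.3 and 53.6 CPM. The animals of both genotypes overlapped (log2 fold change -0.07, SE 0.18, edgeR adjusted p = 0.868), and the sign turned to 0.08 without RP1 and to 0.06 without RPC2. Fzd7 (1:59521269-59534685, plus strand) had 14, 18, 9 and 18 transcripts, which are 0.501, 0.651, 0.171 and 0.392 CPM. RP lay above RPC in CPM, although RP2 and RPC2 held the same number of transcripts (log2 fold change -1.09, SE 0.54, edgeR adjusted p = 0.394). The log2 fold change was -1.79 without RPC2 and ranged from -1.79 to -0.59 when any single animal was left out. Fzd2 (11:102495222-102498884, plus strand) had 6, 8, 5 and 5 transcripts and did not pass the filter on low counts.

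The planar cell polarity genes differed in direction. Vangl2 (1:171828527-171856011, minus strand), a membrane protein of the polarity complex, had levels of 24.2, 18.4, 17.2 and 15.1 CPM. RP lay above RPC without overlap, with RP2 and RPC1 close together (log2 fold change -0.46, SE 0.23, edgeR adjusted p = 0.388). Prickle1 (15:93394582-93494477, minus strand), its cytoplasmic partner, had levels of 9.2, 12.9, 13.7 and 19.3 CPM. Here both RPC animals lay above both RP animals (log2 fold change 0.52, SE 0.29, edgeR adjusted p = 0.433). Prickle2 (6:92347873-92683215, minus strand), its paralog, had levels of 253, 168, 451 and 196 CPM. RPC1 was high by itself, and RPC2 lay between the RP animals. Its log2 fold change of 0.55 (SE 0.43, edgeR adjusted p = 0.553) fell to -0.14 without RPC1.

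**Figure D1:**
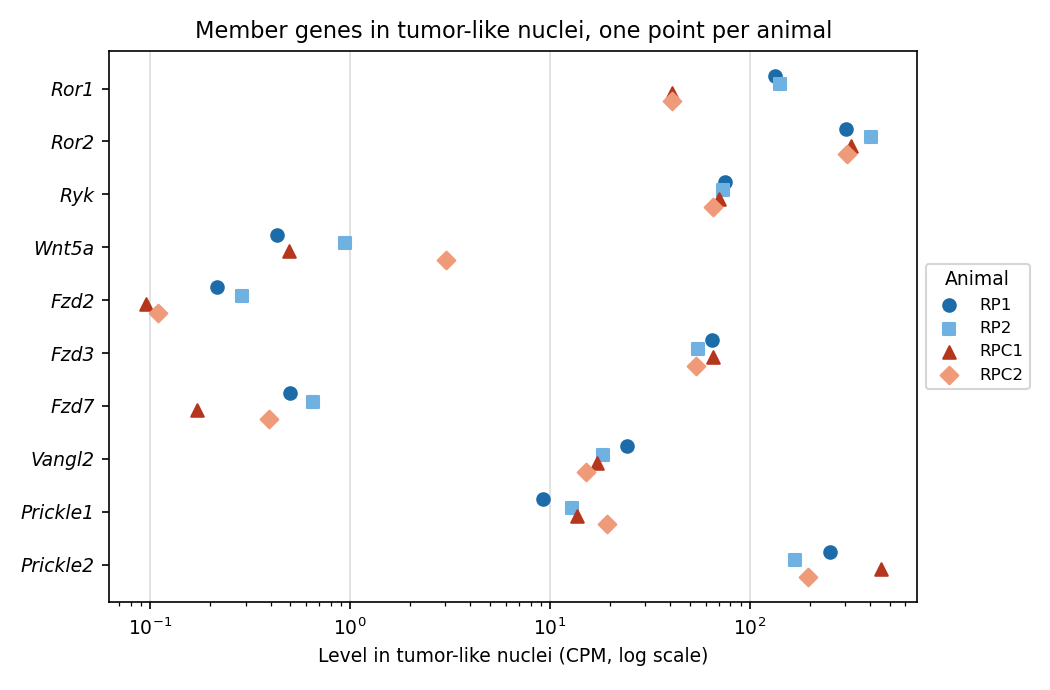
Level of each of the 10 genes in tumor-like nuclei (x axis, CPM on a log scale), 1 point per animal and 1 row per gene. The Ror1 points of RP1 and RP2 (134 and 141 CPM) stand apart from those of RPC1 and RPC2 (40.9 and 40.8 CPM), while single animals stand apart for Wnt5a (RPC2) and Prickle2 (RPC1).

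None of the 8 tested genes besides Ror1 passed the threshold of an adjusted p under 0.05 in the quasi-likelihood test of edgeR, which adjusts over all genes. The share of all 20133 tested genes that passed was 0%. Unadjusted, 0 of the 8 had a p under 0.05, whereas 3058 of all tested genes did. DESeq2 called 0 of the 7 to which it gave an adjusted p. DESeq2 called 649 of 36619 genes in all (1.77%), 302 of them lower in RPC (0.825%). The median log2 fold change of the 9 tested members was -0.19, against -0.01 over all tested genes, but it includes Ror1, which this contrast chose. Of the 8 tested members besides Ror1, both RP animals lay above both RPC animals for Ryk, Fzd7 and Vangl2, and the reverse held for 1 (Prickle1). Fzd2, which was not tested, also had RP above RPC on few transcripts. Of all tested genes, 22.4% had RP above RPC and 28.3% had RPC above RP in this sense.

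The Ror1 difference was seen in every sublibrary. The sublibraries are splits of the pooled nuclei made after barcoding, told apart here by the end of the nucleus barcode, and each held nuclei of all 4 animals. Over the 7 sublibraries, Ror1 ranged from 123 to 146 CPM in RP1, from 130 to 159 in RP2, from 36.2 to 45.9 in RPC1 and from 35.1 to 42.9 in RPC2. RP lay above RPC in 7 of 7, as was the case for 5.52% of all tested genes (RPC above RP in every sublibrary held for 9.61%), and the log2 ratio of the means ranged from -1.98 to -1.64 with a median of -1.71. Ryk and Vangl2 each had RP above RPC in 5 of 7 sublibraries, and Prickle1 had RPC above RP in 5 of 7. Prickle2 overlapped in all 7, with RPC1 between 433 and 468 CPM. The barcoding wells of an animal were also alike for Ror1: 122 and 142 CPM in RP1, 128 and 158 in RP2, then 44.3, 41.4 and 36.3 in RPC1, and 40.9 with 40.7 in RPC2.

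**Figure D2:**
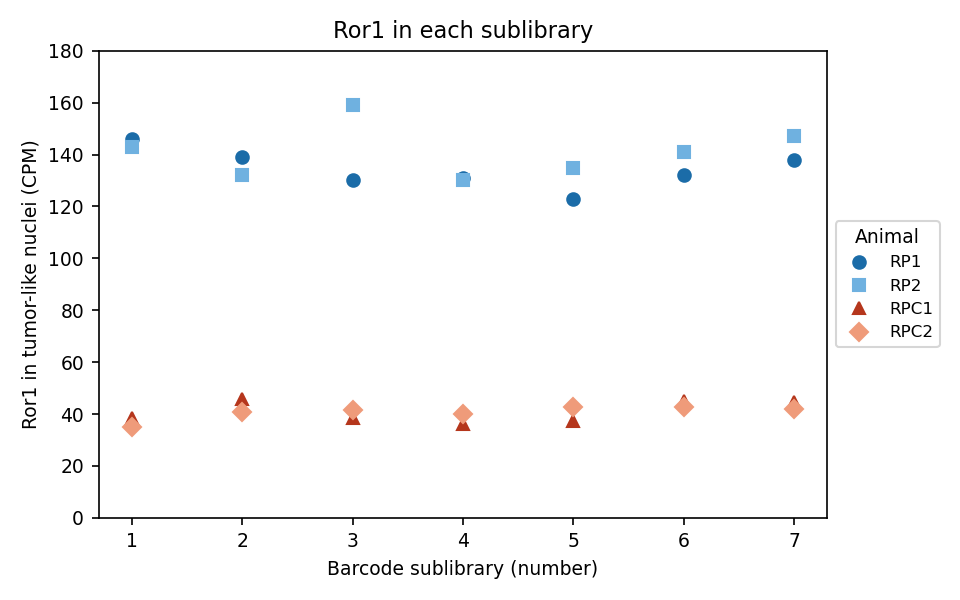
Ror1 in tumor-like nuclei (y axis, CPM) in each of the 7 sublibraries (x axis), 1 point per animal. RP1 and RP2 lie between 123 and 159 CPM in every sublibrary, and RPC1 and RPC2 between 35.1 and 45.9 CPM.

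Ror1 was not even across the tumor clusters of an animal. Among clusters with at least 50 nuclei of the animal, the level ranged from 112 to 178 CPM over 5 clusters of RP1 and from 28.7 to 182 over 3 of RP2. It ranged from 29.1 to 67.4 CPM over 4 clusters of RPC1 and from 22.9 to 77.3 over 6 of RPC2. The clusters of the genotypes therefore overlapped through 1 cluster, that of RP2 at 28.7 CPM, which had 92 nuclei and 7 Ror1 transcripts. In that same cluster RPC1 had 67.4 CPM from 17 transcripts in 72 nuclei, and RPC2 had 36.2 CPM. A cluster led by neuronal genes held 579 nuclei of RPC1 and 12, 28 and 30 of RP1, RP2 and RPC2. Without it, Ror1 stood at 134, 141, 42.4 and 40.7 CPM, and Prickle2 in RPC1 at 467 CPM.

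Fewer tumor-like nuclei of RPC had a Ror1 transcript. Nuclei were thinned to 1000 transcripts each, because deeper nuclei show more genes. A Ror1 transcript was then found in 11.4% of 6356 RP1 nuclei (95% interval 10.7 to 12.2) and 12.2% of 6535 RP2 nuclei (11.5 to 13.1). For RPC the shares were 3.6% of 9009 RPC1 nuclei (3.22 to 4) and 3.65% of 8267 RPC2 nuclei (3.26 to 4.08). The intervals are exact binomial ones and cover counting error only. Without thinning, the shares were 26.9%, 25.5%, 13.7% and 12.7%. In macrophage or monocyte-like nuclei, which had the lowest Ror1 mean of the classes with at least 15 nuclei in every animal, the thinned shares were 4.65%, 7.55%, 0.565% and 2.44% at median depths of 3045, 3316.5, 4901 and 2734 transcripts, against 2598, 2507, 3392 and 2966 in tumor-like nuclei. The tumor-like share was the higher one in each animal.

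Markers of other cell types within tumor-like nuclei were set beside the Ror1 difference, since some of these types were rich in Ror1. The summed smooth muscle or pericyte markers stood at 23.6, 18.4, 16.3 and 14.9 CPM, and the fibroblast markers at 52.5, 73.5, 38.4 and 36.7 CPM. Both sums were thus higher in RP. Marker by marker, RP lay above RPC for 3 of 11 and 5 of 12, and RPC above RP for 0 and 1. Of all tested genes, 22.4% had RP above RPC and 28.3% the reverse. The fibroblast markers Lum and Tcf21 were each at 0 in an animal. The smooth muscle or pericyte sums were 0.359% to 1.29% and the fibroblast sums 1.39% to 2.95% of those in their own class. The alveolar type 2 markers stood at 113, 144, 146 and 140 CPM, which overlapped between the genotypes, as did the alveolar type 1 markers at 172, 113, 156 and 190 CPM. The summed mesothelial markers, at 129, 168, 205 and 169 CPM, were higher in RPC, with RP2 and RPC2 close together. Marker by marker this did not hold: of the 8, 3 were higher in both RP animals and 2 in both RPC animals. What part these transcripts had in the Ror1 difference was not tested.

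Across the nuclei classes, Ror1 was highest in smooth muscle or pericyte-like nuclei, the contractile cells around vessels and airways. The levels there were 794, 932, 1540 and 737 CPM. Each animal was far above its own tumor-like level, at 593%, 659%, 3780% and 1810% of it. The log2 fold change over tumor-like nuclei was 3.55 (SE 0.21, edgeR adjusted p = 2.08e-60). This value joins a smaller rise in RP with a larger one in RPC, where the low tumor-like level had chosen Ror1. Alveolar type 2-like nuclei, the surfactant-making epithelium, had 659, 574, 520 and 389 CPM. They too were above tumor-like nuclei in all 4 animals, at 492%, 406%, 1270% and 955% of that level (log2 fold change 2.68, SE 0.17, edgeR adjusted p = 4.02e-52).

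Ror1 was also high in classes with few nuclei, which were added after the data had been seen. Fibroblast-like nuclei had 814, 486, 812 and 486 CPM (log2 fold change 3.00, SE 0.16, edgeR adjusted p = 3.84e-74), and alveolar type 1-like nuclei, the flat gas-exchange epithelium, had 301, 335, 184 and 190 CPM (1.62, SE 0.21, edgeR adjusted p = 3.25e-13). All 4 animals were above their tumor-like level in both classes, and the rise was again larger in RPC. Fibroblast-like nuclei stood at 608%, 344%, 1990% and 1190% of that level, and alveolar type 1-like nuclei at 225%, 237%, 450% and 465%. Mesothelial-like nuclei, with 5 to 22 nuclei per animal and therefore not tested, had 834, 454, 528 and 1210 CPM.

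Among the classes with at least 15 nuclei in every animal, the order of the Ror1 means ran from smooth muscle or pericyte-like (1000 ± 370 CPM, SD, n = 4) over fibroblast-like (650 ± 189) and alveolar type 2-like (536 ± 113) to alveolar type 1-like nuclei (252 ± 77.1). The ranges of the first 3 classes overlapped with their neighbor, while alveolar type 2-like and alveolar type 1-like nuclei did not overlap. Below them followed club-like, endothelial-like, tumor-like, T or NK cell-like, B cell-like and macrophage or monocyte-like nuclei, each of which overlapped with the next. The 2 classes with fewer nuclei, mesothelial-like (756 ± 343 CPM, SD, n = 4) and ciliated-like (36.9 ± 64.7), were left out of this order. Against tumor-like nuclei, Ror1 was lower in macrophage or monocyte-like (log2 fold change -0.72, SE 0.15, edgeR adjusted p = 0.00089) and in B cell-like nuclei (-0.62, SE 0.16, edgeR adjusted p = 0.00125), but the second call was lost without RP1 (adjusted p = 0.0936). Both were lost when all classes were fitted jointly (adjusted p = 0.156 and 0.586). T or NK cell-like, endothelial-like and club-like nuclei did not pass the test (adjusted p = 0.0974, 0.743 and 0.394).

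**Figure D3:**
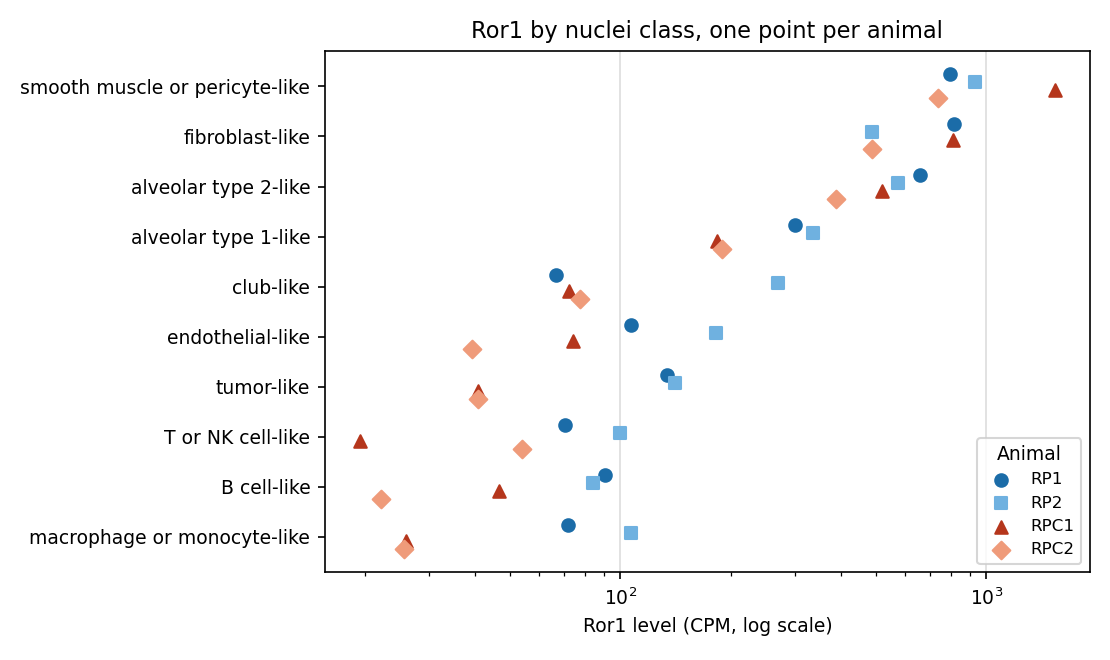
Ror1 level (x axis, CPM on a log scale) in each nuclei class (rows, ordered by the mean over animals), 1 point per animal. The animals of smooth muscle or pericyte-like nuclei lie between 737 and 1540 CPM and those of alveolar type 2-like nuclei between 389 and 659 CPM, all above the tumor-like range of 40.8 to 141 CPM.

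After thinning, Ror1 transcripts were found in 54.5%, 58.3%, 58.5% and 40.5% of the smooth muscle or pericyte-like nuclei, which numbered 77, 72, 41 and 37. In alveolar type 2-like nuclei the shares were 39.1%, 38.6%, 35.4% and 27.5%. In both classes the share of each animal was above that of its tumor-like nuclei. Tumor RNA was present in the named classes to different degrees: the median neuroendocrine marker stood at 51% to 71.8% of its tumor-like level in smooth muscle or pericyte-like, 28.1% to 54.5% in alveolar type 2-like, 38.4% to 58% in fibroblast-like, 32% to 72.4% in endothelial-like, 41.8% to 66.1% in macrophage or monocyte-like, 33.3% to 81.2% in T or NK cell-like and 65.4% to 86.4% in B cell-like nuclei, over the 4 animals. In alveolar type 1-like nuclei the range was 8.66% to 50.8%. In club-like nuclei the animals stood at 0%, 24.7%, 67.4% and 18.7%, with RPC1 far above the others. The part of tumor RNA in the class levels was not tested.

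The other members had their own patterns over the classes. In the 6 classes with at least 20 nuclei in every animal, edgeR made 50 tests of members and called 24 of them, 8 higher and 16 lower than in tumor-like nuclei, and 29 had an unadjusted p under 0.05. DESeq2 called 20 of 55. Among all tested genes, 13.1% were called in B cell-like (5.67% higher, 7.42% lower), 14.1% in T or NK cell-like (5.66% and 8.47%), 25.7% in alveolar type 2-like (10.5% and 15.1%), 25.4% in endothelial-like (10.8% and 14.7%), 17.1% in smooth muscle or pericyte-like (9.04% and 8.11%) and 31.1% in macrophage or monocyte-like nuclei (14.7% and 16.4%). In the 3 added classes the shares were 22.4% in alveolar type 1-like (10.1% higher, 12.3% lower), 23.2% in club-like (9.8% and 13.4%) and 20.6% in fibroblast-like nuclei (10.1% and 10.5%).

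Ror2 did not follow Ror1. Its levels in tumor-like nuclei (304 to 402 CPM) overlapped with those in fibroblast-like nuclei (426, 368, 294 and 252 CPM) and with those of smooth muscle or pericyte-like nuclei (227, 343, 312 and 208 CPM). It was lower than in tumor-like nuclei in 5 of the 6 tested classes, with log2 fold changes of -1.47 in alveolar type 2-like, -1.51 in endothelial-like, -1.30 in T or NK cell-like, -1.09 in macrophage or monocyte-like and -0.59 in B cell-like nuclei. The last of these was lost in the joint fit of all classes (edgeR adjusted p = 0.0603). In the added classes it was also lower in alveolar type 1-like (-1.56) and club-like nuclei (-2.80, or -3.89 without RPC1, which held most club-like nuclei, and -0.97 at a clustering resolution of 0.8). Alveolar type 2-like nuclei thus had more Ror1 and less Ror2 than tumor-like nuclei, with Ror2 at 204, 110, 121 and 121 CPM.

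The Ryk means ran from 40.4 ± 8.16 CPM (SD, n = 4) in macrophage or monocyte-like to 89.2 ± 8.1 in fibroblast-like nuclei, around 71 ± 4.23 in tumor-like nuclei. Only the macrophage or monocyte-like nuclei passed the test, at 39.5, 44.1, 48.6 and 29.5 CPM (log2 fold change -0.87). All 4 animals were lower there than in their tumor-like nuclei.

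Wnt5a was called in 2 classes, both of mesenchymal cells. Smooth muscle or pericyte-like nuclei held 8, 3, 6 and 5 transcripts, which are 13.2, 5.65, 31.7 and 31.5 CPM (log2 fold change over tumor-like nuclei 4.13, SE 0.60, edgeR adjusted p = 2.73e-10). All animals were above their tumor-like level, and both RPC animals were above both RP animals. Fibroblast-like nuclei held 0, 14, 8 and 8 transcripts (4.23, SE 0.61, edgeR adjusted p = 9.32e-11, 3.61 without RP2 and 4.99 without RPC2), so RP1, with 18 such nuclei, had none. No Wnt5a transcript was counted in B cell-like, T or NK cell-like or alveolar type 2-like nuclei. In alveolar type 2-like nuclei of RP2, 0 of 83 thinned nuclei allow up to 3.61% of nuclei with a transcript at this depth (3 counts of the total, or 4.35% as the upper end of the exact interval), and the other animals allow more. This limits the nuclei with a counted transcript, not those that express the gene.

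The Frizzled genes split. Fzd3 was lower than in tumor-like nuclei in alveolar type 2-like (log2 fold change -1.35), macrophage or monocyte-like (-1.07) and smooth muscle or pericyte-like nuclei (-0.81), of which the last call was lost without RP1 (edgeR adjusted p = 0.2) or RP2 (0.133). In alveolar type 2-like nuclei it stood at 38.8, 18.3, 13.4 and 40.3 CPM, all below tumor-like nuclei. Alveolar type 1-like (-0.94), club-like (-1.16) and fibroblast-like nuclei (-0.71) were called as well, but each call was lost without at least 1 animal: without RP1 or RPC2 (adjusted p = 0.0541 and 0.119), without RP2 or RPC2 (0.105 and 0.0894) and without RPC1 or RPC2 (0.274 and 0.157), respectively.

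Fzd7 was higher in macrophage or monocyte-like nuclei, with 3, 13, 24 and 7 transcripts, which are 4.23, 6.82, 15.1 and 13.8 CPM. All animals were above tumor-like nuclei, where Fzd7 did not reach 1 CPM (log2 fold change 4.51, SE 0.60, edgeR adjusted p = 7.92e-06, 3.80 without RPC1). In smooth muscle or pericyte-like nuclei it rested on 4, 0, 1 and 2 transcripts (3.36, SE 0.91, edgeR adjusted p = 0.00221), and the call was lost without RP1 (adjusted p = 0.156) or RPC2 (0.0762), while the value rose to 4.26 without RP2. In the added classes it was called in club-like nuclei (4.14, or 3.11 at a clustering resolution of 0.8, with 1, 6, 17 and 0 transcripts) and in fibroblast-like nuclei (2.98, with 2, 1, 1 and 0 transcripts), the second of which was lost without RP1, RP2 or RPC1 (adjusted p = 0.446, 0.0734 and 0.186) and was 3.58 without RPC2. The Fzd2 call in alveolar type 1-like nuclei rested on 3 transcripts in 2 animals.

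Prickle1 was highest in fibroblast-like nuclei. Its levels there were 312, 157, 174 and 87 CPM, all above tumor-like nuclei (log2 fold change 3.48, SE 0.20, edgeR adjusted p = 3.3e-65). In endothelial-like nuclei it stood at 55.8, 70.6, 48.6 and 65.6 CPM (2.00, SE 0.29, edgeR adjusted p = 7.93e-11), while smooth muscle or pericyte-like nuclei had 44.7, 39.5, 111 and 37.8 CPM (1.98, SE 0.29, edgeR adjusted p = 2.21e-10). The animals of these 2 classes overlapped with each other and lay above all tumor-like values.

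Prickle2 was highest, among the classes tested, in endothelial-like nuclei, with 423, 641, 642 and 1000 CPM. Each animal was above its tumor-like level (log2 fold change 1.27, SE 0.15, edgeR adjusted p = 4.1e-16), and after thinning 24.6%, 32.4%, 46.7% and 42.1% of endothelial-like nuclei had a transcript, against 20.5%, 13.6%, 32.2% and 15.4% of tumor-like nuclei. It was lower in alveolar type 2-like (-0.99), T or NK cell-like (-0.98), B cell-like (-0.66) and macrophage or monocyte-like nuclei (-0.55), the last of which was lost without RP1 (adjusted p = 0.221), and all of which were lost in the joint fit (adjusted p = 0.0557, 0.208, 0.374 and 0.239). It was also lower in the added club-like nuclei (-2.16, or -2.87 without RPC1 and -0.95 at a clustering resolution of 0.8). As in tumor-like nuclei, RPC1 was the highest animal in B cell-like (334 CPM), T or NK cell-like (358 CPM) and macrophage or monocyte-like nuclei (374 CPM). These values were 74.1%, 79.5% and 82.9% of the tumor-like level of RPC1. The median neuroendocrine marker of RPC1 stood at 83.6%, 65.4% and 56.4% in the same classes. What part tumor RNA had in these Prickle2 levels was not tested. Ciliated-like nuclei, with 6 to 16 nuclei per animal and not tested, had 1240, 760, 704 and 353 CPM.

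Vangl2 was lower in macrophage or monocyte-like than in tumor-like nuclei, at 14.1, 12.6, 8.84 and 5.91 CPM (log2 fold change -0.89, edgeR adjusted p = 0.00457). All 4 animals were below their tumor-like level. No other tested or added class was called for Vangl2.

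**Figure D4:**
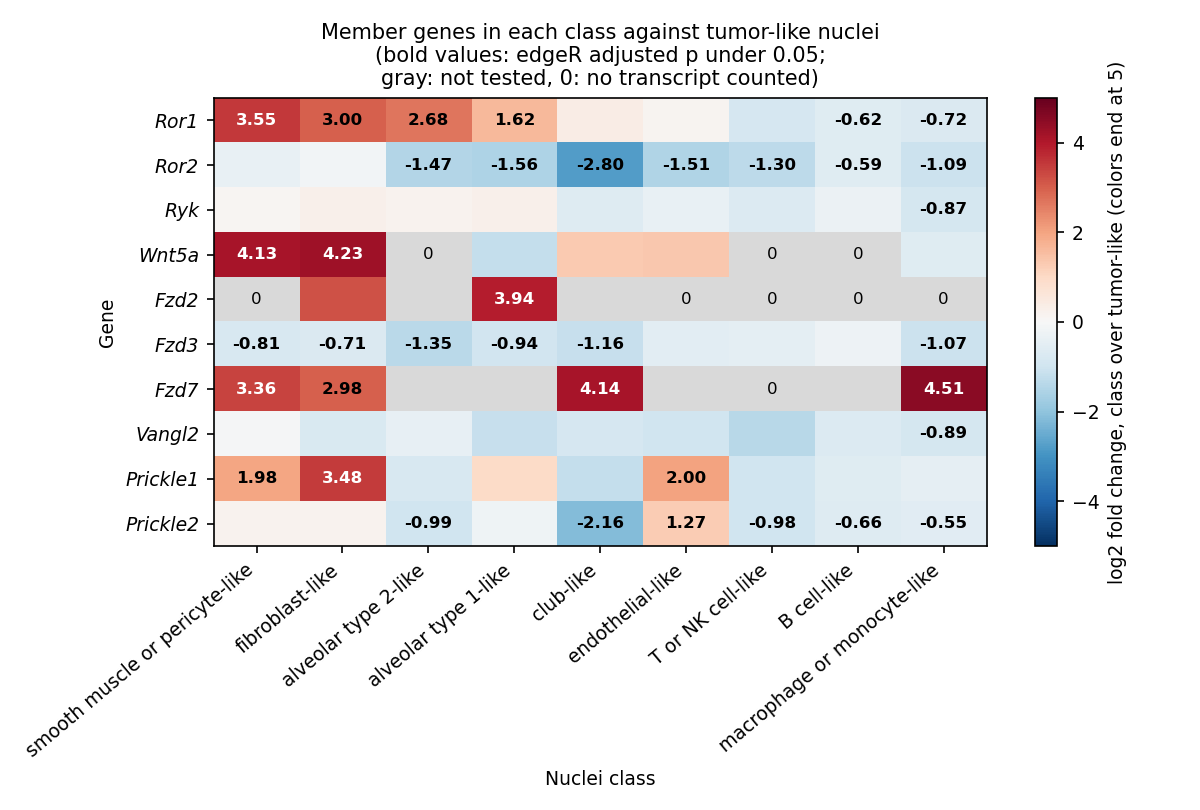
Log2 fold change of each of the 10 genes (rows) in each nuclei class over tumor-like nuclei (columns), shown as color, with values where edgeR gave an adjusted p under 0.05, gray where a gene was not tested and 0 where no transcript was counted. Ror1 is higher in smooth muscle or pericyte-like (3.55), fibroblast-like (3.00), alveolar type 2-like (2.68) and alveolar type 1-like nuclei (1.62), whereas Ror2 is lower or not called in every class shown.

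The genotype difference of Ror1 was then looked at within the other classes. In macrophage or monocyte-like nuclei Ror1 stood at 71.9, 107, 25.9 and 25.6 CPM, in B cell-like nuclei at 90.7, 84, 46.5 and 22.2, and in endothelial-like nuclei at 107, 182, 74.2 and 39.4. RP lay above RPC in all 3 classes, with log2 fold changes of -1.92, -1.46 and -1.41. These classes also held tumor RNA. Ror1 stood at 53.6%, 75.8%, 63.3% and 62.8% of the tumor-like level of the animal in macrophage or monocyte-like nuclei. In B cell-like nuclei it stood at 67.7%, 59.4%, 114% and 54.5%. The median neuroendocrine marker stood at 41.8% to 66.1% and at 65.4% to 86.4% there. What part tumor RNA had in these genotype differences was not tested. In alveolar type 2-like nuclei RP was also above RPC, but the log2 fold change was -0.47. In smooth muscle or pericyte-like nuclei the genotypes overlapped at 0.33, a value that turned to -0.32 without RPC1. The genotype difference in smooth muscle or pericyte-like nuclei exceeded that in tumor-like nuclei by 1.89 (log2, SE 0.28), and the one in alveolar type 2-like nuclei by 1.44 (SE 0.33). In macrophage or monocyte-like nuclei the 2 differences lay 0.02 apart (-0.02, SE 0.32). Since the tumor-like contrast chose Ror1, these values carry no test.

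Besides Ror1, members were tested 27 times for a genotype difference within the 6 classes, and edgeR called 0. Unadjusted, 0 had a p under 0.05, and DESeq2 called 0 of 23. Of all tested genes, 0.0925% were called in B cell-like, 0% in T or NK cell-like, 0% in alveolar type 2-like, 0.0367% in endothelial-like, 0% in smooth muscle or pericyte-like and 0.0186% in macrophage or monocyte-like nuclei. Fzd7 in macrophage or monocyte-like nuclei had RPC above RP (log2 fold change 1.18, SE 0.51, edgeR adjusted p = 0.421), as had Wnt5a in smooth muscle or pericyte-like nuclei (1.61, SE 0.69, edgeR adjusted p = 0.493). Prickle2 in macrophage or monocyte-like nuclei stood at 108, 175, 374 and 134 CPM, which overlapped between the genotypes (0.74, SE 0.44, edgeR adjusted p = 0.546), and it was called without RPC2 (1.23, adjusted p = 0.0405).

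The difference of the genotype differences between a class and tumor-like nuclei was tested 44 times for members besides Ror1, and edgeR called 0, with 4 unadjusted p values under 0.05. DESeq2 called 0 of 46. The smallest adjusted p was 0.369, for Fzd7 in macrophage or monocyte-like nuclei (2.54, SE 0.97). Of all tested genes, 0.88% were called in macrophage or monocyte-like, 0.965% in smooth muscle or pericyte-like, 0.102% in alveolar type 2-like, 0.0983% in B cell-like, 0.0405% in T or NK cell-like and 0.459% in endothelial-like nuclei.

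Other genes of the Wnt pathway were counted from 6 lists with 102 genes. In tumor-like nuclei 90 were tested between RPC and RP. edgeR called 0 of them, 16 had an unadjusted p under 0.05 (15.2% of all tested genes had), and their median log2 fold change was -0.19. By list, the median was -0.33 for 12 ligands, -0.12 for 9 receptors, -0.68 for 13 planar cell polarity genes, 0.10 for 21 noncanonical effectors, -0.35 for 20 secreted and membrane modulators and 0.10 for 15 genes of the beta-catenin branch. An unadjusted p under 0.05 was found for 1, 2, 5, 2, 3 and 3 of them, in the same order of lists. Scrib, a scaffold protein of the polarity complex, stood at 91.1, 111, 38.9 and 48 CPM. Both RP animals were above both RPC animals, with a log2 fold change of -1.27 (SE 0.19), and edgeR did not call it (adjusted p = 0.268) whereas DESeq2 did (adjusted p = 0.000784). Rspo1, a secreted enhancer of Wnt signaling, stood at 4.62, 4.88, 1.37 and 2.09 CPM (-1.51, SE 0.35, edgeR adjusted p = 0.272, DESeq2 adjusted p = 0.016). Apc, a scaffold of beta-catenin breakdown, was above RP in both RPC animals at 228, 255, 376 and 424 CPM (0.67, SE 0.15, edgeR adjusted p = 0.272).

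Against tumor-like nuclei, pathway genes were called in both directions in every class. Of 84 tested in smooth muscle or pericyte-like nuclei, 18 were higher and 12 lower. The counts were 14 and 16 of 82 in alveolar type 2-like, 11 and 12 of 83 in endothelial-like, 4 and 26 of 82 in macrophage or monocyte-like, 5 and 13 of 82 in B cell-like, and 5 and 12 of 79 in T or NK cell-like nuclei. In the added classes they were 17 and 10 of 85 in fibroblast-like, 14 and 11 of 83 in alveolar type 1-like and 15 and 15 of 83 in club-like nuclei.

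The 5 pathway genes with the smallest p in each class are given with their log2 fold changes over tumor-like nuclei, all of which passed the edgeR threshold. Tcf7l2, a transcription factor that binds beta-catenin, was among them in 7 classes, at 6.79 in macrophage or monocyte-like, 5.99 in fibroblast-like, 5.50 in smooth muscle or pericyte-like, 5.10 in endothelial-like, 5.09 in club-like, 4.90 in alveolar type 1-like and 3.93 in alveolar type 2-like nuclei. Smooth muscle or pericyte-like nuclei, the class richest in Ror1, also had higher Dkk2 (6.85, or 6.09 without RPC1) and Dkk3 (5.45), which are secreted Wnt modulators, Gpc4 (4.84, or 4.24 without RPC1) and the noncanonical effector Daam2 (5.33). Alveolar type 2-like nuclei had higher Daam2 (6.50), Rnf43 (5.86), a ubiquitin ligase that removes Frizzled receptors, Gpc4 (4.62) and Nkd1 (3.89). In fibroblast-like nuclei Dkk3 (6.78), Sfrp1 (5.76), Nkd2 (5.50) and Ptk7 (2.63), a polarity co-receptor, were higher.

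In alveolar type 1-like nuclei the others were Wnt3a (7.96), Daam2 (7.86), Rnf43 (5.89) and Gpc4 (5.03), and in club-like nuclei Daam2 (5.67, or 6.27 without RPC2), Rnf43 (5.55), Wnt7b (4.99) and Gpc4 (4.54). Endothelial-like nuclei had higher Rspo3 (5.65), Dkk2 (5.45, or 4.19 without RP1 and 6.04 without RPC2) and Fzd4 (5.41), the receptor of vascular development, and lower Prkca (-1.35). T or NK cell-like nuclei had higher Lef1 (9.07) and Tcf7 (4.43), the T cell factors of the beta-catenin branch, Rnf43 (5.14) and Nfatc1 (1.54), and lower Lgr4 (-3.34, or -4.24 without RPC1). B cell-like nuclei had higher Lef1 (4.34), Dkk2 (3.78, or 4.51 without RP1) and Nfatc1 (1.05) and lower Lrp5 (-0.60) and Celsr3 (-0.59). The calls of Dkk2, Lrp5 and Celsr3 were lost in the joint fit of all classes (edgeR adjusted p = 0.0679, 0.109 and 0.103), and that of Dkk2 also under DESeq2 (2.63, adjusted p = 0.491). Macrophage or monocyte-like nuclei had higher Nfatc1 (1.01) and lower Nfatc2 (-1.03), Celsr3 (-0.89) and Prkca (-0.82).

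The genes around Ror1 were examined in tumor-like nuclei. Of 78 genes annotated within 1 Mb besides Ror1, 51 were in the gene tables and 18 were tested, with a median log2 fold change of RPC over RP of -0.07. Both RP animals lay above both RPC animals for 3 of them, the reverse held for 3, and 12 overlapped. Ube2u, a ubiquitin-conjugating enzyme gene 34 kb from Ror1, stood at 1.11, 1.27, 0.513 and 0.544 CPM (-1.22, SE 0.35, edgeR adjusted p = 0.288). Ak4, a mitochondrial adenylate kinase gene at 974 kb, stood at 25.9, 20, 11 and 5.66 CPM (-1.53, SE 0.37, edgeR adjusted p = 0.272). The neighbors between them included Jak1 (-0.18, SE 0.46) and Cachd1 (-0.46, SE 1.21), both of which overlapped between the genotypes. On the other side, Pgm1 overlapped (-0.35, SE 0.32), and Itgb3bp (0.28, SE 0.16) and Alg6 (0.30, SE 0.15) were above RP in both RPC animals.

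**Figure D5:**
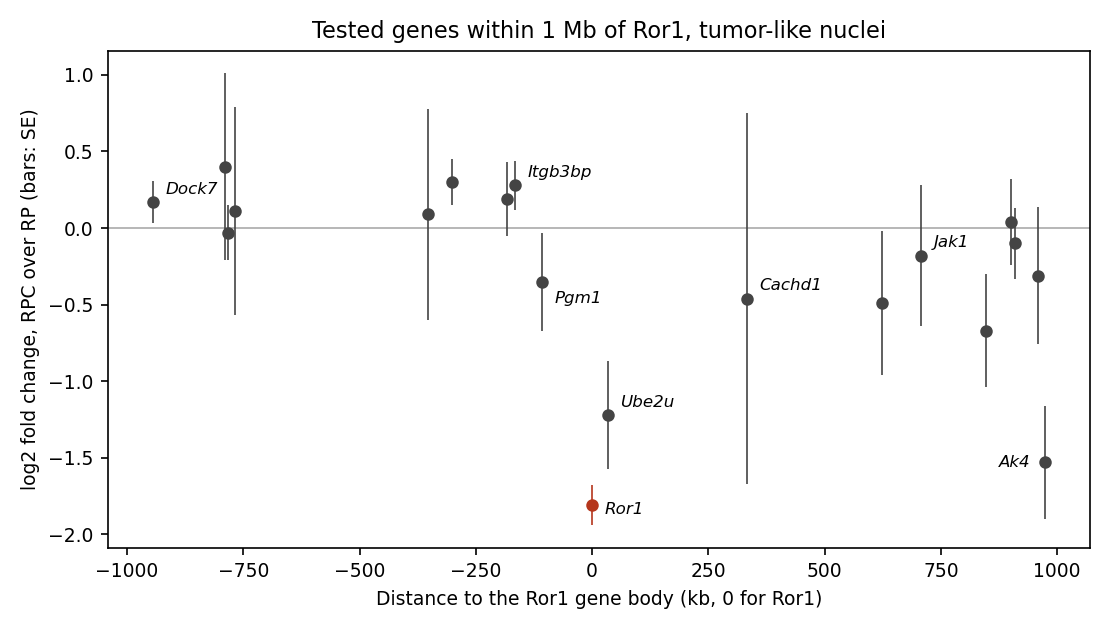
Log2 fold change of RPC over RP in tumor-like nuclei (y axis, bars are standard errors) for Ror1 and the 18 tested genes within 1 Mb, by distance to the Ror1 gene body (x axis, kb). Ror1 (-1.81) is the lowest point, Ak4 (-1.53) and Ube2u (-1.22) follow, and the median of the 18 neighbors is -0.07.

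The genes whose levels were most like those of Ror1 were sought among 9813 genes over 28 sums, which are the tumor-like nuclei and the 6 tested classes of each animal. The sums of an animal share its libraries and depth, so the correlation is a description. The highest values of Pearson's r on log2(CPM + 1) were 0.88 for Gpr39, 0.85 for Ano1, a calcium-activated chloride channel, 0.85 for Mrc2, 0.83 for Fads3, 0.83 for Tead1, a transcription factor of the Hippo pathway, 0.82 for Shroom3, 0.82 for Tpm1, a tropomyosin, and 0.81 for Rbms3. Gpr39 had means of 110 CPM in smooth muscle or pericyte-like and 83.3 CPM in alveolar type 2-like nuclei, against 2.1 CPM in tumor-like nuclei. Within tumor-like nuclei, Gpr39 stood at 2.61, 2.71, 1.41 and 1.65 CPM and Ano1 at 2.69, 3.4, 1.58 and 2.04 CPM, with RP above RPC for both, whereas Rbms3 had 270, 462, 430 and 475 CPM, with RPC2 highest and RP1 lowest.

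The targeted genes could not check the genotype labels, because the counts cover the whole gene and not the deleted part. In tumor-like nuclei Casp8 stood at 56.8, 60.4, 91.6 and 66.6 CPM, Rb1 at 309, 333, 395 and 436 CPM, and Trp53 at 12.9, 12.5, 18.8 and 12.7 CPM. Casp8 was higher in both RPC animals than in both RP animals, but it was not called (log2 fold change 0.37, edgeR adjusted p = 0.399), nor were Rb1 (0.32, adjusted p = 0.371) and Trp53 (0.25, adjusted p = 0.659).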

How the data were processed

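The authors aligned the reads to GRCm39 and assigned nuclei to animals by the Parse software, and they deposited 1 matrix of transcript counts per animal, not normalized, with tables of genes and nuclei. Of the 12 columns of the table of nuclei, 8 were not used. The 10 genes and the pathway and marker lists were chosen with earlier results of these data known.

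Following the thresholds of the study, 38254 of 38353 nuclei were kept, those with at least 300 counts, at most 12000 genes and at most 10% of counts from mitochondrial genes. They were clustered by the Leiden algorithm (leidenalg 0.10.2, Python 3.11.15) at a resolution of 0.4 on 20 principal components of 2000 variable genes, and candidate non-tumor clusters again at a resolution of 1.0. Clusters were named from 13 marker lists by a rule set after the clusters had been seen, and differences from the study can arise from these names. No cluster was named neutrophil-like. No doublet caller was run, and non-tumor clusters deeper than 4 times the median of their animals, as well as shallow clusters rich in ribosomal RNA, stayed unnamed (623, 693, 714 and 683 nuclei in RP1, RP2, RPC1 and RPC2, with ambiguous clusters). Deep clusters under this limit kept their names. Examples are B cell-like clusters of 122 and 78 nuclei at 2.468 and 2.631 times the median, and a smooth muscle or pericyte-like cluster of 97 nuclei at 3.41 times. Their neuroendocrine markers were near the tumor-like level, with median log2 ratios of -0.23, -0.11 and -0.27. What part such nuclei had in the class levels and calls was not tested.

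Counts were summed per animal and class and tested two-sided by edgeR 4.0.16 (quasi-likelihood test, R 4.3.3; TMM scaling, filterByExpr, Benjamini-Hochberg adjustment over all genes tested, threshold 0.05), with the animal as a block where a class was compared with tumor-like nuclei of the same animals. The study used DESeq2, kept as an alternative (1.42.0). Standard errors were calculated back from the F statistic. Levels are CPM without TMM scaling. The fit was checked on simulated data. Samples were grouped by the animal and genotype named in the labels. Named were the 10 genes, for each class the 5 pathway genes with the smallest p, the 3 with the smallest p between the genotypes, the tested neighbors of Ror1, the 8 genes most like it, and the targeted genes. Naming 5 per class, Gm35701, Gm12701 and Gm12706, and the animals left out were chosen after the values had been seen. Alternatives were DESeq2, RLE size factors, no filter, other nuclei filters and resolution, leaving out each animal, other blocks, a joint fit, and other thinning depths.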

Additional observations from a re-analysis of the deposited data

How the results depend on the processing

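Ror1 is left out of every count of genotype calls, because its genotype difference chose it. Besides it, 0 members were called between the genotypes in tumor-like nuclei and 0 for differing genotype differences, under every alternative run. The 24 calls of classes against tumor-like nuclei became 13 in the joint fit of all classes and 37 of 78 tests with the 3 smaller classes added, and they stayed between 20 and 25 when 1 animal was left out. Within classes the count of 0 became 1 without RPC2 (Prickle2 in macrophage or monocyte-like nuclei), and it was 0 to 1 when 1 animal was left out. The Ror1 share of tumor-like nuclei differed between RPC and RP by -8.21 percentage points at 1000 transcripts, by -4.37 at 500 and by -13 without thinning. The sign turned in tumor-like nuclei for Wnt5a without RPC2 (-0.52, range over animals left out -0.52 to 2.1), for Fzd3 without RP1 (0.08) and without RPC2 (0.06, range -0.2 to 0.08) and for Prickle2 without RPC1 (-0.14, range -0.14 to 1.04). It turned for Ror1 within smooth muscle or pericyte-like nuclei without RPC1 (-0.32, range -0.32 to 0.77). The cause was not tested. Of the 37 calls of members in classes, 22 held under every alternative in which they were tested. Among them were the Ror1 rises in smooth muscle or pericyte-like, fibroblast-like, alveolar type 2-like and alveolar type 1-like nuclei.

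Animals of RP and RPC share only a number: the correlation of their deviations was -0.05 over 20133 genes, and with the animal number as a replicate block 0 members were called. With no replicate block, 16 of the class comparisons were called. With 2 animals per genotype and common variation between animals of 0.285 (biological coefficient of variation), small differences were not detectable, and Fzd2, Fzd7 and Wnt5a rested on few transcripts.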
